A study of Mus musculus with 13 samples.

Results

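The transcripts of 44 mouse genes of the autophagy machinery and the mTOR pathway were followed in myeloid cells sorted from amyloid-bearing brains with and without Trem2. The members are a list of gene symbols drawn up with earlier results of these data known, though the rule itself uses no measured value, and all 44 were found among the 52636 genes listed for each mouse. RNA-Seq had been run on CD11b+CD45+Ccr2-Ly6g- cells, the brain-resident myeloid population, from the cortex and hippocampus of mice aged 14 to 15 months. There were 7 PS2APP;Trem2wt mice (5 females, 2 males) and 6 PS2APP;Trem2ko mice (5 females, 1 male, spelled PS2APP;Trem2KO in the labels), and each mouse gave 1 library. Both groups carried the PS2APP transgenes, which encode human presenilin 2 and amyloid precursor protein with familial Alzheimer's disease mutations and lead to β-amyloid plaques, so no group was free of amyloid. The Trem2ko mice were homozygous for the null allele Trem2tm1(KOMP)Vlcg, which is constitutive and therefore removes the receptor from every cell of the animal. Parents carried 1 copy of the null allele, and mice of both groups could thus come from the same litter.

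Autophagy encloses cytoplasm, aggregates or damaged organelles in a double membrane that fuses with the lysosome. The ULK kinase complex starts the process, a class III phosphatidylinositol 3-kinase marks the growing membrane, ATG9 vesicles and ATG2 bring it lipid, and ubiquitin-like conjugation attaches ATG8 proteins (LC3 and GABARAP), to which cargo receptors bind. The kinase mTOR, as part of mTORC1 at the lysosome, holds the ULK complex in check when nutrients are plentiful, whereas AMPK and the TSC complex hold mTORC1 in check when energy is short. In microglia the same conjugation machinery also serves LC3-associated phagocytosis, in which the ATG8 proteins are attached to a single-membrane phagosome.

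Of the 5 ATG8 transcripts only Map1lc3a was called different between the genotypes, as described below. The ends of the 5 coding sequences show how alike these genes are. Each line gives the last 60 coding bases, stop codon included, from 5′ to 3′ on the plus strand of GRCm38, with the codon of the last glycine in capitals. ATG4 proteases cut behind that glycine, and the exposed glycine is the residue joined to phosphatidylethanolamine.
Map1lc3a, chr2:155277578-155277637: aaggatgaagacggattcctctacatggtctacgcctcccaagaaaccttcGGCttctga
Map1lc3b, chr8:121596711-121596770: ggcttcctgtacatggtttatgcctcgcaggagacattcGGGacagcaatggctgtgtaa
Gabarap, chr11:69994465-69994524: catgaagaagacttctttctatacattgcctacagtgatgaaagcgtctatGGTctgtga
Gabarapl1, chr6:129541108-129541167: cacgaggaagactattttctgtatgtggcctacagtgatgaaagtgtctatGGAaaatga
Gabarapl2, chr8:111952346-111952405: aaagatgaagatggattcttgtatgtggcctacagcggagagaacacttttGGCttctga
In Map1lc3b 5 codons followed the glycine codon, and in each of the other four genes 1 codon did. The coding sequences of Map1lc3a and Map1lc3b were identical at 77.5% of aligned bases and those of Gabarap and Gabarapl1 at 74.9%, while the remaining pairs lay between 54.4% and 64.9%. None of the 50-base words of the Map1lc3a or Gabarap transcripts occurred in a transcript of another gene, against 6.01% of those of Map1lc3b, 12.2% of Gabarapl2 and 23.1% of Gabarapl1.

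Trem2 itself checked the labels, with an nRPKM (RPKM adjusted by a size factor) of 1044 ± 141 (SD, n = 7) in Trem2wt and 0.887 ± 0.734 (SD, n = 6) in Trem2ko cells. Counts assigned to genes totalled 26120961 to 120569609 per mouse. Microglial markers dominated every library, with 8 markers summing to between 12022 and 14693 nRPKM in Trem2wt and between 12457 and 14220 in Trem2ko mice. The 4 neutrophil markers (S100a8, S100a9, Ly6g and Retnlg), whose cells the sort was set to remove, summed to between 5.52 and 117 nRPKM in Trem2wt mice, the highest in replicate 2, and to between 0.122 and 17.2 in Trem2ko mice. For none of the 9 marker lists were the genotypes separate, and none of the 38 markers tested was called different (edgeR, lowest adjusted p = 0.309).

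All 44 members were transcribed well enough to be tested, so none was lost to the filter on low counts. The lowest count of any member in any mouse was 133, for Wipi1. Their mean nRPKM over the 13 mice ranged from 0.602 for Prkaa2 to 85.4 for Gabarap, with a median over members of 8.52 against 2.54 over the 17086 genes tested, and 40 of 44 lay above the median gene. Gabarap and the cargo receptor gene Sqstm1 (78.8) were the only members above 50 nRPKM, 16 members lay between 10 and 50, and 26 lay below 10. In 9 of the 10 pairs of paralogs compared, the same gene of the pair was the more abundant in all 13 mice, and the plot of levels shows these orders by role.

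**Figure D1:**
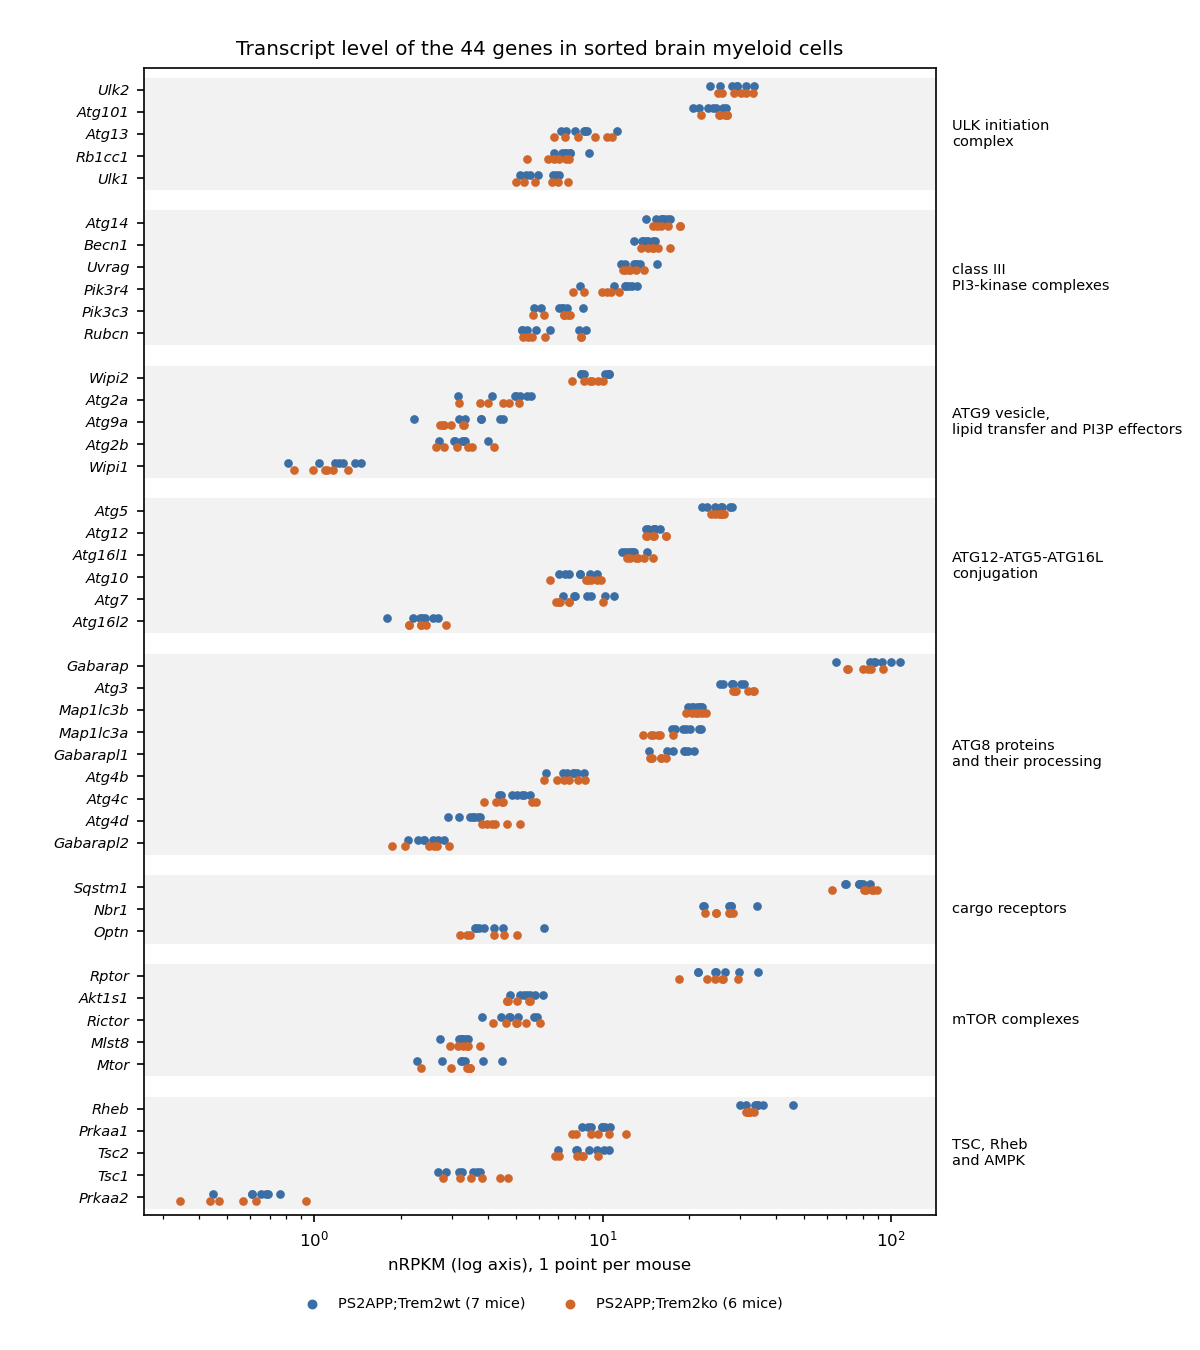
Level of each of the 44 transcripts in nRPKM (horizontal log axis), 1 point per mouse, in blue for the 7 PS2APP;Trem2wt and in orange for the 6 PS2APP;Trem2ko mice, grouped by role and ordered by mean level. Gabarap and Sqstm1 stand highest and Prkaa2 and Wipi1 lowest in both genotypes, and the points of the genotypes overlap for every gene except Atg4d.

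In Trem2ko cells the transcripts of nearly the whole machinery lay within narrow limits of their level in Trem2wt cells. Protein levels and activity of the members were not measured. Only Map1lc3a was called lower, with the adjusted p at or under 0.05, and no member was called higher (edgeR's quasi-likelihood test, Benjamini-Hochberg adjustment over 17086 genes). Of all genes tested 1.53% were called lower and 0.503% higher, so 1 of 44 and 0 of 44 are near those background shares. At an unadjusted p of 0.05 or less, 3 members were lower (Map1lc3a, Gabarapl1 and Pik3r4) and 1 was higher (Atg4d), where 7.56% of all genes were lower and 7.29% higher. TMM-normalised counts did not overlap between the genotypes for 1 member in each direction, Map1lc3a lower and Atg4d higher, beside 1.22% and 0.421% of all genes.

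The log2 fold changes of the members, Trem2ko against Trem2wt, ran from -0.35 to 0.33 with a median of -0.02, and the median over all genes was 0.00. Negative values were found for 25 members and positive ones for 19. The median size of the log2 fold change, sign aside, was 0.08 for the members and 0.16 for all genes. The median biological coefficient of variation, the spread between mice beyond counting noise, was 0.130 for the members and 0.205 for all genes. The whole interval lay within a 1.5-fold change in either direction for 43 of 44 members (97.7%), and the exception was the scarce Prkaa2. The share was 54.1% over all genes and 87.8% over the 74 further pathway genes tested, described below, whose median nRPKM was 8.16. Within a 2-fold change lay the intervals of all 44, against 74.7% of all genes and 95.9% of those 74. The median SE was 0.0975 for the members and 0.155 for all genes. A set of genes matched to the members in level was not compared. These data are from bulk RNA, in which fewer cells expressing a gene and less of its RNA per cell cannot be told apart. Mice served as the replicates.

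**Figure D2:**
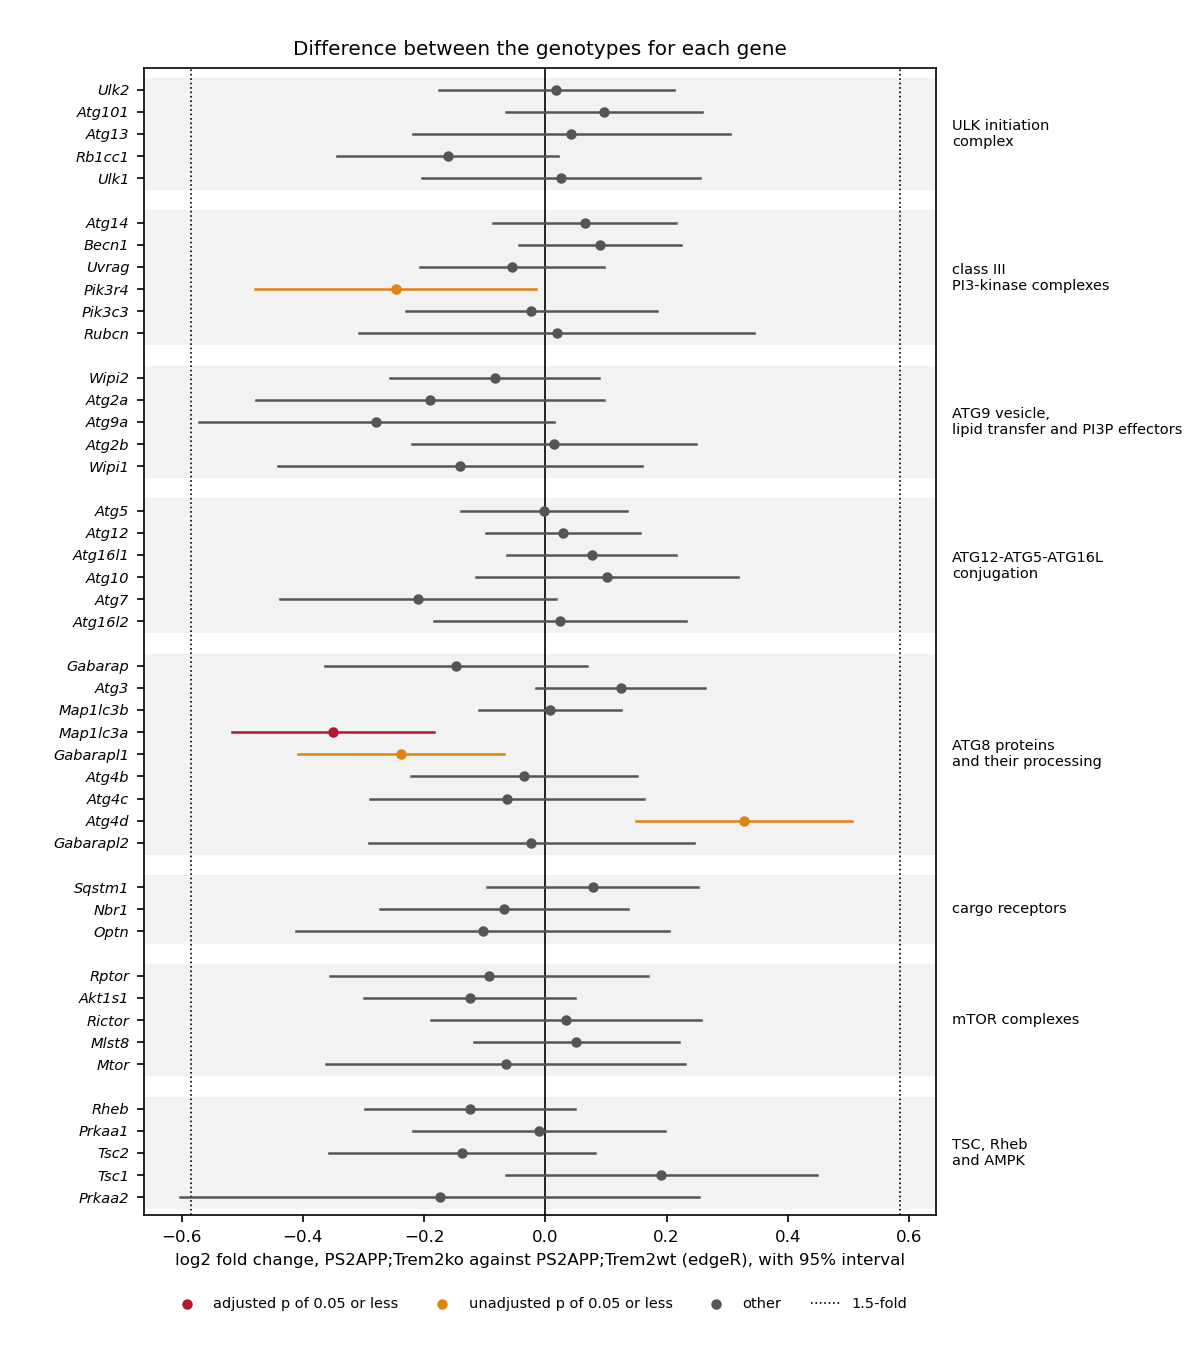
Log2 fold change of each member, Trem2ko against Trem2wt, from edgeR (point) with its 95% interval (line), by role. Map1lc3a is the only member with an adjusted p of 0.05 or less, Pik3r4, Gabarapl1 and Atg4d reach 0.05 before adjustment only, and every interval except that of Prkaa2 stays inside the dotted lines at a 1.5-fold change.

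Map1lc3a (ENSMUSG00000027602, chromosome 2, 155276297 to 155278073 on GRCm38) encodes LC3A, an ATG8 protein of the LC3 branch, and was the member with the lowest adjusted p. Its nRPKM in Trem2wt mice was 17.4 at the lowest, 19.4 at the median and 21.97 at the highest, and in Trem2ko mice it was 13.8, 15.2 and 17.5. On this scale 5 of 6 Trem2ko mice lay below every Trem2wt mouse, and the groups met at 1 male of each genotype (17.5 in Trem2ko replicate 5, 17.4 in Trem2wt replicate 7). The means were 19.6 ± 1.7 (SD, n = 7) and 15.4 ± 1.3 (SD, n = 6). The fitted log2 fold change was -0.35 (SE 0.08, 95% interval -0.52 to -0.18), a level 21.6% lower in Trem2ko cells (edgeR, adjusted p = 0.0300). The call was near the threshold: over 22 alternative settings the adjusted p ranged from 0.00109 to 0.0782 and it was kept in 14. With no filter on low counts the adjusted p was 0.0594. Leaving out 1 mouse at a time kept the call in 6 of 13 fits and lost it without Trem2wt replicates 4 (adjusted p = 0.0558) or 6 (0.0621) and without Trem2ko replicates 1 (0.0782), 2 (0.0651), 3 (0.0554), 4 (0.0619) or 6 (0.0651). The log2 fold change stayed between -0.43 and -0.32 under all 22. Without Trem2wt replicate 2, the library with the highest neutrophil markers, it was -0.36 with an adjusted p of 0.0452. The neutrophil markers S100a8 and S100a9 were each above every Trem2ko mouse in 4 of 7 Trem2wt mice, so leaving out 1 mouse does not remove that difference. Whether neutrophil RNA bears on Map1lc3a was not tested.

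Map1lc3b, which encodes the LC3B protein most widely used to follow autophagosomes, was at like levels in both groups. Its nRPKM was 21.1 ± 0.8 in Trem2wt and 21.2 ± 1.2 in Trem2ko mice, with a log2 fold change of 0.01 (SE 0.06, 95% interval -0.11 to 0.12). The ratio of Map1lc3b to Map1lc3a within a mouse was 0.947 to 1.18 in Trem2wt mice and 1.29 to 1.55 in Trem2ko mice. The ratios did not overlap, which follows in part from the choice of Map1lc3a by its own difference, and no test was made of them. Map1lc3b was the more abundant of the pair in 12 of 13 mice.

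Transcripts of the GABARAP branch came mostly from Gabarap, whose protein acts late in autophagosome closure and also binds the ULK complex. It had 64.5 nRPKM in the lowest Trem2wt mouse, 88.4 at the median and 108 in the highest, and 70.7, 81.6 and 93.9 in Trem2ko mice. The groups overlapped over most of their range, and the log2 fold change was -0.15 (95% interval -0.36 to 0.07). Gabarap made up a median of 59.3% of the summed nRPKM of the 5 ATG8 transcripts in Trem2wt and 59.8% in Trem2ko mice. Map1lc3b made up 13.7% and 15.9%, Map1lc3a 13.02% and 10.96%, and Gabarapl1 12.2% and 11.6%. Gabarapl2, whose protein is also known as GATE-16, was the scarcest with 1.71% and 1.81%. Its nRPKM was 2.48 ± 0.24 and 2.44 ± 0.40, and Gabarap was above it in each of the 13 mice, by a median of 34.6-fold.

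**Figure D3:**
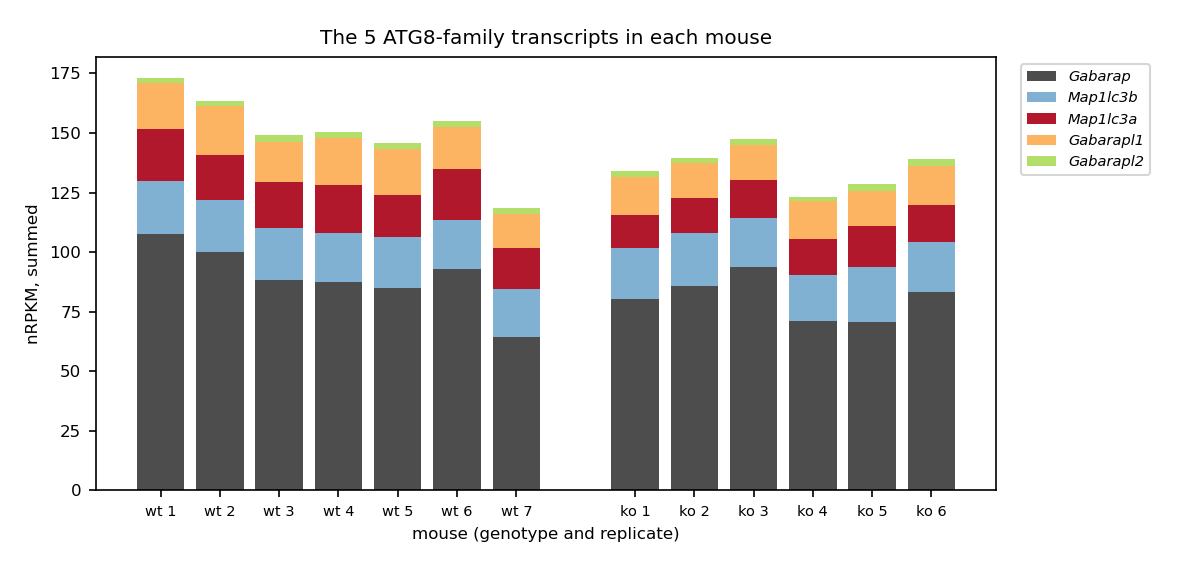
Stacked nRPKM of the 5 ATG8-family transcripts in each mouse, 7 Trem2wt (left) and 6 Trem2ko (right). Gabarap fills the largest block of every bar, and the Map1lc3a block is smaller in 5 of the 6 Trem2ko mice (13.8 to 17.5 in all 6) than in any Trem2wt mouse (17.4 to 21.97).

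Gabarapl1 (ENSMUSG00000030161, chromosome 6, 129533160 to 129542346) encodes a close relative of GABARAP and had the next lowest p among the members with negative values. Trem2wt mice had 14.5 nRPKM at the lowest, 19.2 at the median and 20.7 at the highest, and Trem2ko mice had 14.6, 15.4 and 16.7. In 6 of 7 Trem2wt mice the level was above every Trem2ko mouse, and the remaining one, replicate 7, was below them all. The log2 fold change was -0.24 (SE 0.08, 95% interval -0.41 to -0.07), which did not pass (edgeR, adjusted p = 0.159). The only alternative in which it was called was that without Trem2wt replicate 7 (adjusted p = 0.0404). Of its exon bases 28.3% overlap the antisense gene 1700101I11Rik, which had at most 18 counts in a mouse.

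The ATG4 proteases process ATG8 precursors and remove ATG8 from membranes. Atg4d (ENSMUSG00000002820, chromosome 9, 21265293 to 21277772) had the largest positive value of all members. Its nRPKM was 2.91 at the lowest, 3.56 at the median and 3.76 at the highest in Trem2wt mice, and 3.83, 4.19 and 5.18 in Trem2ko mice, so every Trem2ko mouse lay above every Trem2wt mouse. The log2 fold change was 0.33 (SE 0.08, 95% interval 0.15 to 0.51), a level 25.5% higher (edgeR, adjusted p = 0.0576). Atg4d thus missed the threshold, and it passed with DESeq2 (adjusted p = 0.00804) and with sex as a covariate (0.0444). In the other alternatives the adjusted p was at most 0.143. The gene overlaps the antisense gene Kri1 over 19.3% of its exon bases. Kri1 had 0.855 nRPKM in Trem2wt and 0.714 in Trem2ko mice, a log2 fold change of -0.26 (95% interval -0.63 to 0.12, edgeR, adjusted p = 0.541). Whether the 2 genes share reads was not tested.

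Atg4b, the main LC3 protease, stood above Atg4d in every mouse, by 2.01- to 2.56-fold in Trem2wt and 1.21- to 2.14-fold in Trem2ko mice. Its nRPKM was 7.70 ± 0.72 and 7.52 ± 0.88, a log2 fold change of -0.04 (95% interval -0.22 to 0.15). Atg4c had 4.99 ± 0.46 and 4.79 ± 0.80. Atg3, the E2-like enzyme that transfers ATG8 to lipid, had 28.2 ± 1.9 and 30.8 ± 2.3, with a log2 fold change of 0.12 (95% interval -0.02 to 0.26). Of the 9 transcripts for ATG8 proteins and their processing, 6 had negative and 3 had positive values.

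**Figure D4:**
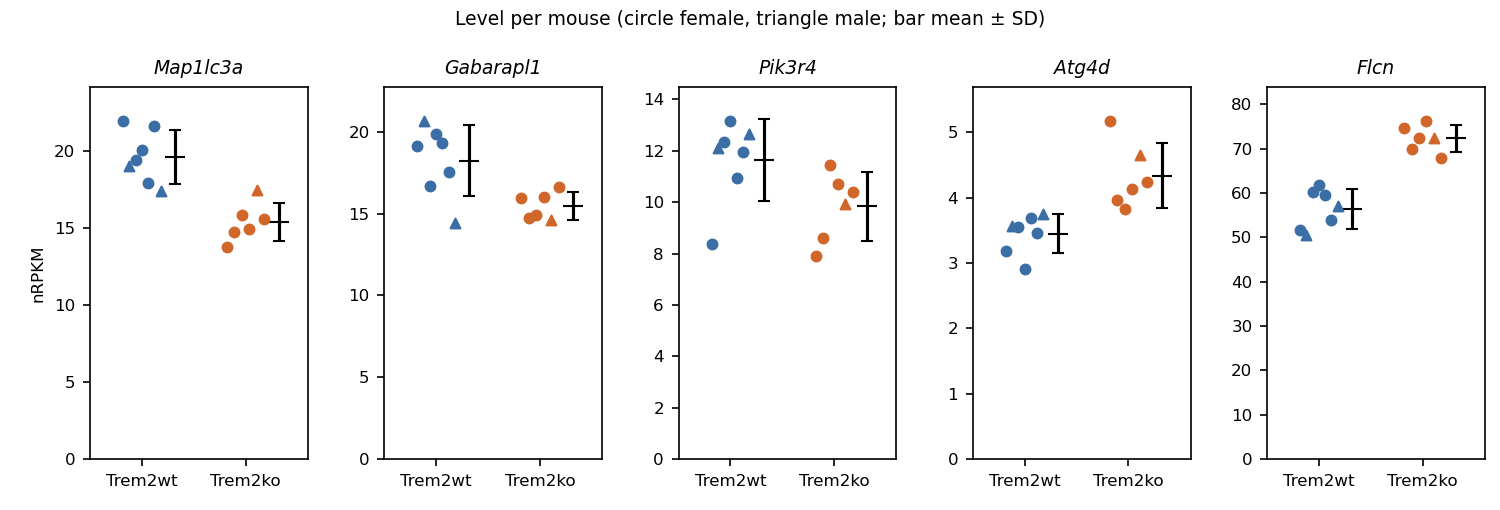
Level in nRPKM of the 4 members with an unadjusted p of 0.05 or less and of Flcn, 1 point per mouse (circles females, triangles males) with the mean and SD of each genotype. The genotypes are separate for Atg4d and Flcn, touch for Map1lc3a and overlap for Gabarapl1 and Pik3r4.

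In the ULK initiation complex none of the 5 transcripts was called. Ulk2, 1 of its alternative kinases, was the most abundant at 28.7 ± 3.3 nRPKM in Trem2wt and 29.1 ± 3.2 in Trem2ko mice. Ulk1, the kinase usually named first, was the least abundant at 6.13 ± 0.76 and 6.254 ± 1.005. Ulk2 was above Ulk1 in all 13 mice, by a median of 4.57-fold. The log2 fold changes of both were close to 0 (0.02 and 0.03). Rb1cc1, the FIP200 scaffold, had the largest value of the complex at -0.16 (95% interval -0.34 to 0.02), which was -0.10 without Trem2ko replicate 1 and -0.12 without Trem2wt replicate 4, while Atg101 and Atg13, which link the kinase to the scaffold, had 0.10 and 0.04.

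Among the 6 transcripts of the class III phosphatidylinositol 3-kinase complexes, Pik3r4 had the largest difference. It encodes VPS15, the regulatory subunit that holds the complex together (ENSMUSG00000032571, chromosome 9, 105642978 to 105687657). Its nRPKM was 8.38 at the lowest, 12.1 at the median and 13.2 at the highest in Trem2wt mice, and 7.90, 10.2 and 11.4 in Trem2ko mice. In 5 of 7 Trem2wt mice it was above every Trem2ko mouse, and replicate 1 lay low among the Trem2ko values. The log2 fold change was -0.25 (SE 0.11, 95% interval -0.48 to -0.02), which did not pass (edgeR, adjusted p = 0.296). Without Trem2wt replicate 1 it was -0.31 (edgeR, adjusted p = 0.0947). Over the 22 alternatives it lay between -0.31 and -0.19, and Pik3r4 was never called.

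The other 5 transcripts of these complexes had smaller values. Pik3c3, the catalytic subunit VPS34, had 7.09 ± 0.92 and 6.996 ± 0.807 nRPKM, a log2 fold change of -0.02 (95% interval -0.23 to 0.18). Becn1, which encodes the scaffold Beclin 1, had 0.09 (95% interval -0.04 to 0.22). However, 36.8% of its transcript words are shared, mostly with the neighbouring Cntd1, which had at most 25 counts in a mouse. Atg14, which directs the complex to autophagosome formation, was the most abundant of the group (15.96 ± 0.99 and 16.7 ± 1.6). Uvrag, of the endosomal complex, had a log2 fold change of -0.06. Rubcn, which encodes Rubicon, an inhibitor of autophagosome maturation that is needed for LC3-associated phagocytosis, was the least abundant (6.49 ± 1.47 and 6.61 ± 1.45) and had 0.02 with the wide interval of -0.31 to 0.34.

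Transcripts for membrane supply and for the readers of phosphatidylinositol 3-phosphate were scarcer, and 4 of 5 had negative values, none called. Atg9a, the scramblase of the ATG9 vesicle, had 3.61 ± 0.79 nRPKM in Trem2wt and 2.98 ± 0.25 in Trem2ko mice. Its log2 fold change of -0.28 (SE 0.14, 95% interval -0.57 to 0.01) did not pass (edgeR, adjusted p = 0.363). Trem2wt replicate 1 (2.22) lay below every Trem2ko mouse, and 5 of 7 Trem2wt mice lay above them all. Without that replicate the value was -0.37 (edgeR, adjusted p = 0.0864). Over the 22 alternatives it lay between -0.37 and -0.19, and Atg9a was never called. Of its transcript words 30.5% are shared, mainly with the gene model Gm29253, which had at most 66 counts in a mouse. Atg2a and Atg2b encode the lipid transfer proteins and had -0.19 and 0.01, with Atg2a above Atg2b in all 13 mice. Wipi2, the reader that recruits ATG16L1, had 9.60 ± 1.03 and 9.08 ± 0.79 and a log2 fold change of -0.08, and it exceeded Wipi1 (1.19 ± 0.22 and 1.09 ± 0.16) by a median of 7.93-fold.

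The 6 transcripts for ATG12-ATG5-ATG16L conjugation had log2 fold changes between -0.21 and 0.10, none called. Atg5, whose product is joined to ATG12, had 25.3 ± 2.2 nRPKM in Trem2wt and 25.3 ± 1.0 in Trem2ko mice, with a 95% interval of the log2 fold change of -0.14 to 0.14. Atg12 had 0.03 (95% interval -0.10 to 0.16). Both intervals lay well inside a 1.5-fold change. Atg16l1, which places the conjugate on the membrane, had 0.08, and it was above its paralog Atg16l2 in all 13 mice by a median of 5.40-fold. Atg7, the E1-like enzyme that activates both ATG12 and ATG8, had the largest value of the group, -0.21 (95% interval -0.44 to 0.02), from 8.91 ± 1.30 and 7.73 ± 1.16 nRPKM. Over the 22 alternatives the value of Atg7 ran from -0.29, without Trem2ko replicate 1, to -0.13, in females only, and it was never called. Atg10, the E2-like enzyme for ATG12, had 0.10.

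Of the cargo receptors, which bind ubiquitin and ATG8 at once, none was called. Sqstm1, the p62 gene, had 69.3 nRPKM at the lowest, 77.8 at the median and 84.7 at the highest in Trem2wt mice, and 62.5, 84.1 and 89.6 in Trem2ko mice. The groups overlapped, with a single low Trem2ko mouse (replicate 4), and the log2 fold change was 0.08 (SE 0.08, 95% interval -0.10 to 0.25). Nbr1 had 27.2 ± 4.0 and 26.0 ± 2.2, a value of -0.07. Optn, the optineurin gene, was the scarcest at 4.26 ± 0.94 and 3.98 ± 0.73, with -0.10 (95% interval -0.41 to 0.20). Its direction rested on 1 mouse, since without Trem2wt replicate 3 the value was 0.013, and without Trem2ko replicates 2, 5 or 6 it was -0.18, -0.06 or -0.05.

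Transcripts of the mTOR complexes did not separate the genotypes either. Mtor, the kinase, had 3.31 ± 0.72 nRPKM in Trem2wt and 3.18 ± 0.45 in Trem2ko mice, a log2 fold change of -0.07 (95% interval -0.36 to 0.23). Rptor, which encodes the mTORC1 subunit Raptor, was the most abundant of the 5 at 26.1 ± 4.7 and 24.6 ± 3.7 and had -0.09. Rictor, the mTORC2 subunit, had 4.94 ± 0.73 and 5.05 ± 0.66 and a value of 0.03. Raptor transcripts thus exceeded those of both the kinase and Rictor on the per-length scale. Mlst8, shared by both complexes, had 0.05, and Akt1s1, which encodes the mTORC1 inhibitor PRAS40, had the largest value of the group, -0.12 (95% interval -0.30 to 0.05).

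Upstream of mTORC1, 4 of 5 transcripts had negative values and none was called. Rheb, the GTPase that activates mTORC1, was the most abundant (35.1 ± 5.1 and 32.2 ± 0.7 nRPKM). Tsc1 and Tsc2 form the complex that switches Rheb off, and their log2 fold changes had opposite signs, 0.19 (95% interval -0.07 to 0.45) and -0.14 (95% interval -0.36 to 0.08). Without Trem2ko replicate 5 the value of Tsc1 was 0.12. Transcripts for the AMPK catalytic subunits came mostly from Prkaa1, at 9.61 ± 0.76 and 9.55 ± 1.61, with a log2 fold change of -0.01 (95% interval -0.22 to 0.20). Prkaa2 was at 0.636 ± 0.099 and 0.563 ± 0.209, a median of 16.2-fold below Prkaa1. Its log2 fold change of -0.17 had the widest interval of all members (-0.60 to 0.25), and a 1.5-fold lower level lay inside it.

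A further 76 genes of the same pathways that are not among the 44 were read in the same fit, and 74 were tested (Atg9b and Prkag3 were too low). Flcn was called higher (1 of 74, beside 0.503% of all genes) and none was called lower (beside 1.53%). Flcn (ENSMUSG00000032633, chromosome 11, 59791408 to 59810016) encodes folliculin, which acts on the Rag GTPases that bring mTORC1 to the lysosome. It had 50.5 nRPKM at the lowest, 57.1 at the median and 61.8 at the highest in Trem2wt mice and 67.9, 72.5 and 76.4 in Trem2ko mice. The groups were separate, and the log2 fold change was 0.36 (SE 0.06, 95% interval 0.22 to 0.49), 28.0% higher (edgeR, adjusted p = 0.00748). Flcn kept the call in all 22 alternative settings, with adjusted p between 6.79e-07 and 0.0491. Those 22 do not include the 2-fold threshold, which its difference does not reach. Its partner Fnip1 had 0.28 and was not called (edgeR, adjusted p = 0.185). Before adjustment 4 of the 74 genes were lower (5.41%, beside 7.56% of all genes) and 7 higher (9.46%, beside 7.29%) at p of 0.05 or less, and 37 values were negative and 37 positive, with a median of -0.01.

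The other pathway genes that reached 0.05 before adjustment were spread over several roles. Lamtor4 and Lamtor1, of the Ragulator complex that anchors the Rag GTPases, had -0.30 and -0.18, and Nprl3, of the GATOR1 complex that switches them off, had 0.22. Rps6kb1 and Rps6kb2, the S6 kinases that mTORC1 phosphorylates, had 0.26 and 0.34. Vps41, of the HOPS tether that serves fusion with the lysosome, had 0.18, and Nrbf2, a partner of ATG14 in the class III kinase complex, had -0.21. Telo2, which helps to assemble mTOR complexes, had 0.20, and Cab39, a partner of the AMPK-activating kinase LKB1, had -0.17. None of these passed the adjustment (edgeR, adjusted p between 0.119 and 0.327). Tfeb and Tfe3, transcription factors of lysosomal and autophagy genes that mTORC1 retains in the cytoplasm, had -0.05 (95% interval -0.21 to 0.11) and -0.05 (95% interval -0.22 to 0.12).

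Males and females were compared in a model with genotype and sex, over 10 females and 3 males. Of all genes 4 were called (0.0234%), and none was a member. Before adjustment 3 members reached p of 0.05 or less, or 6.82% beside 6.95% of all genes. Prkaa2 had 0.544 nRPKM in females and 0.794 in males, a log2 difference of 0.54 (95% interval 0.14 to 0.95). Rptor had 0.29 and Atg5 had -0.15. All had an adjusted p of 0.713 (edgeR), and 3 males limited this comparison.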

How the data were processed

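The study's authors sorted the cells by FACS, made libraries with the SMART-seq v4 kit, sequenced single-end 50-base reads and aligned them to GRCm38 with GSNAP. They deposited, for each mouse and 52636 Ensembl genes, raw counts of uniquely aligned reads without normalization and nRPKM, which is RPKM corrected with a size factor. Whether counting used the strand is not given in the sources used here, so a gene and its antisense neighbour may share reads.

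Symbols and positions came from the GENCODE M21 annotation of GRCm38 (52489 of 52636 genes had a name), and coding sequences were read from that genome. Counts were filtered with filterByExpr by genotype, which left 17086 genes, scaled by TMM and tested with edgeR 4.0.16 (glmQLFit, glmQLFTest, R 4.3.3) without a covariate. The p-values were adjusted by Benjamini-Hochberg over all genes, and a gene was called at 0.05 or less. The SE is the log2 fold change divided by the root of F. Levels between genes were compared on nRPKM only. The test was tried on simulated data first. The 22 alternatives included a new fit with voom and limma (limma 3.58.1), the test the study named, here after the filter and TMM scaling above. The others were DESeq2 1.42.0, RLE scaling, other filters, a sex term, females alone and leaving out each mouse. Log2 values of nRPKM plus a pseudocount of 0.1 or 1 were also tested with limma. A 2-fold threshold was applied only to the counts of called genes and is not among the 22.

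Total counts lay between 26120961 and 120569609 per mouse. Among the 36 pairs of mice of 1 genotype the chi-square per degree of freedom was at least 18.7, so no such pair differed by sampling noise alone. Pairs between the genotypes were not compared. Replicates are numbered in accession order. Per the study's methods mice were generally handled from perfusion to sort in pairs of opposite Trem2 genotype, but the labels do not give the pairs, and the fit is unpaired. The members, roles and lists were chosen with earlier results of these data known. Values are given for members with an adjusted or unadjusted p of 0.05 or less, members without overlap, the most and least abundant member and the largest difference of each role, the paralog pairs and pathway genes with an adjusted p of 0.05 or less. Others are named by role, with their values seen. The share of transcript words is the share of a gene's 50-base words, on either strand, found in transcripts of another gene. It was also 17.4% for Uvrag (mostly with Gm45187), 16.4% for Mlst8 (with Bricd5) and 15.5% for Sqstm1 (with Mrnip). Members whose share is not given had lower ones than these.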

Additional observations from a re-analysis of the deposited data

Results flagged for a closer look

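Dixon's test at 95% was applied to the nRPKM of each member in each genotype, 88 groups in all, and 9 groups held 1 mouse far from the rest, where chance alone flags about 1 in 20 groups. In the ULK complex, Atg13 was at 11.2 in Trem2wt replicate 4 and at 7.20 to 8.81 in the other Trem2wt mice, Rb1cc1 was at 9.01 in the same mouse against 6.80 to 7.73, and Atg101 was at 21.97 in Trem2ko replicate 4 against 25.3 to 27.1. In the conjugation group, Atg7 was at 10.02 in Trem2ko replicate 1 against 6.92 to 7.63, and Atg10 was at 6.60 in Trem2ko replicate 3 against 8.76 to 9.91. Among the cargo receptors, Sqstm1 was at 62.5 in Trem2ko replicate 4 against 80.4 to 89.6, and Optn was at 6.25 in Trem2wt replicate 3 against 3.61 to 4.50. In the mTOR pathway, Mlst8 was at 2.73 and Rheb at 45.7 in Trem2wt replicate 1, against 3.17 to 3.41 and 29.9 to 36.0. Trem2wt replicates 1 and 4 and Trem2ko replicate 4 were each flagged for 2 members. None of these members was called between the genotypes. What set these mice apart was not tested.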

How the results depend on the processing

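The count of members called lower was 1 with all 13 mice and 0 with no filter on low counts and with a 2-fold threshold, and it ranged from 0 to 2 when 1 mouse was left out, Gabarapl1 joining Map1lc3a without Trem2wt replicate 7. Members called higher were 0, and 1 (Atg4d) with DESeq2 and with sex as a covariate, and 0 to 0 when 1 mouse was left out. Of all genes 262 were called lower, and 526 with DESeq2, 173 in females only and 118 with the 2-fold threshold. Of all genes 86 were called higher, and 325 with DESeq2, 53 with no filter and 9 with the 2-fold threshold, and 42 to 107 when 1 mouse was left out. The signs of Rb1cc1, Pik3r4, Atg9a, Atg7, Map1lc3a, Gabarapl1, Atg4d, Akt1s1, Tsc1 and Flcn, the only genes followed singly besides Optn, were kept in all 22 alternatives. Optn ranged from -0.181 to 0.0134 on the log2 scale over the fits that left out 1 mouse and turned sign without Trem2wt replicate 3. No setting moved the median log2 fold change of all genes beyond 0.024. No paired analysis was possible because the labels do not say which mice belong together, although the study's methods state that mice were generally handled in pairs of opposite Trem2 genotype up to and including the sort. The unpaired fit leaves this pairing out, and its part in the results was not tested.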
